A study of Homo sapiens with 4 samples.

Results

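ATP-binding cassette (ABC) transporter genes were examined as the rows of the count tables whose symbol is ABC followed by a subfamily letter from A to G and a number. This rule found 46 genes among the 59050 gene symbols of the tables. RNA-seq covered 4 libraries labelled HepG2, a line of human hepatic carcinoma cells. Of these, 2 were of untreated cells (0 h) and 2 of cells treated for 24 h with doxorubicin, a DNA-damaging anthracycline, at 1 ug/ml. Both groups were grown in DMEM with serum, and the series describes the libraries of a group as biological replicates. Doxorubicin was given to raise p53. Because the groups differ in drug and in time (0 h against 24 h), effects of p53, of other actions of the drug and of time cannot be told apart.

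ABC proteins bind and hydrolyse ATP, and most of them use the energy to move a substrate across a membrane. P-glycoprotein (ABCB1), MRP1 (ABCC1) and the breast cancer resistance protein (ABCG2) pump drugs out of cells, and doxorubicin is a known substrate of ABCB1 and ABCC1. In hepatocytes other members export bile salts, phospholipid, sterols and conjugates into bile, and in many cells members of subfamilies A and G move cholesterol and phospholipid. Members of subfamily D work in peroxisomes and lysosomes, several of subfamily B work in mitochondria, and those of subfamilies E and F act on ribosomes and do not cross a membrane.

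The libraries held between 27572740 and 36272180 counts. At this depth 3 counts, the limit that a count of 0 allows, correspond to a CPM (the counts of a gene scaled to a common library total) between 0.0827 and 0.109. Untreated replicate 2 stood apart. In 81.6% of the genes tested its CPM was above or below all 3 other libraries, and the median fold between replicates was 1.80 in untreated and 1.19 in doxorubicin-treated cells. The main comparisons are therefore given with and without it. The label was checked against 14 hepatocyte markers, of which 0 reached a CPM of 1 in all 4 libraries. ALB had at most 3 counts in any library, and the summed CPM of the 14 markers lay between 1.16 and 7.08. Of 5 markers of simple epithelium, KRT8 and KRT18 had a CPM of at least 783, while KRT19, EPCAM and CDH1 had at most 21 counts in any library. Of 5 mesenchymal markers 4 were expressed, VIM at a CPM of at least 718, and COL1A2 had at most 2 counts. The counts therefore lack the liver genes that the label calls for. Of 5 markers of squamous epithelium 2 were expressed, KRT14 at a CPM between 2.39 and 7.43 and the other far above that. The 5 summed to a CPM between 158 and 727, nearly all of it from that other marker. KRT5, KRT6A and TP63 had at most 13 counts in any library. The 5 immune markers summed to a CPM of at most 1.14. In such bulk libraries, fewer cells with a transcript and less transcript per cell cannot be told apart.

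Of the 46 ABC genes, 23 were expressed, meaning a CPM of at least 1 in all 4 libraries, against 21.0% of all rows of the tables, which include non-coding genes and pseudogenes. Of 18665 protein-coding genes outside a window around ABCF1 that is described further on, 57.2% were expressed. A further 7 reached that level in some libraries, and 16 stayed under it in every library. The expressed genes were 5 of 12 in subfamily A, 5 of 9 in B, 6 of 12 in C, 3 of 4 in D, ABCE1, 2 of 3 in F and 1 of 5 in G. The level of expression had a gap at this limit. The lowest CPM of ABCA8, the expressed gene nearest to it, was 1.80, while ABCB6 just outside had a lowest CPM of 0.496 and ABCG1 of 0.381. Summed over all 46 genes, untreated replicates 1 and 2 reached a CPM of 1861 and 1416, and doxorubicin replicates 1 and 2 reached 1690 and 1635.

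To compare levels between genes, the CPM was divided by exon length in kb, giving RPKM. ABCF3 (mean RPKM over the 4 libraries 37.8), ABCF2 (35.7) and ABCA3 (34.2) were among the highest. Their ranges, from 28.8 to 45.3, from 30.5 to 40.6 and from 26.9 to 48.3, overlapped each other, so the order among these 3 genes was within the spread of the libraries. ABCA3 transports surfactant lipid in the lung, and ABCF2 and ABCF3 are soluble proteins with a role in translation. ABCC3 and ABCC2, which export conjugates across the basolateral and the canalicular face of hepatocytes, had mean RPKM values of 26.7 and 17.6, and ABCE1, which recycles ribosomes, had 23.2. At the lower end stood ABCB9 (1.67), ABCA8 (1.41) and ABCA5 (1.38), whose ranges also overlapped.

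**Figure D1:**
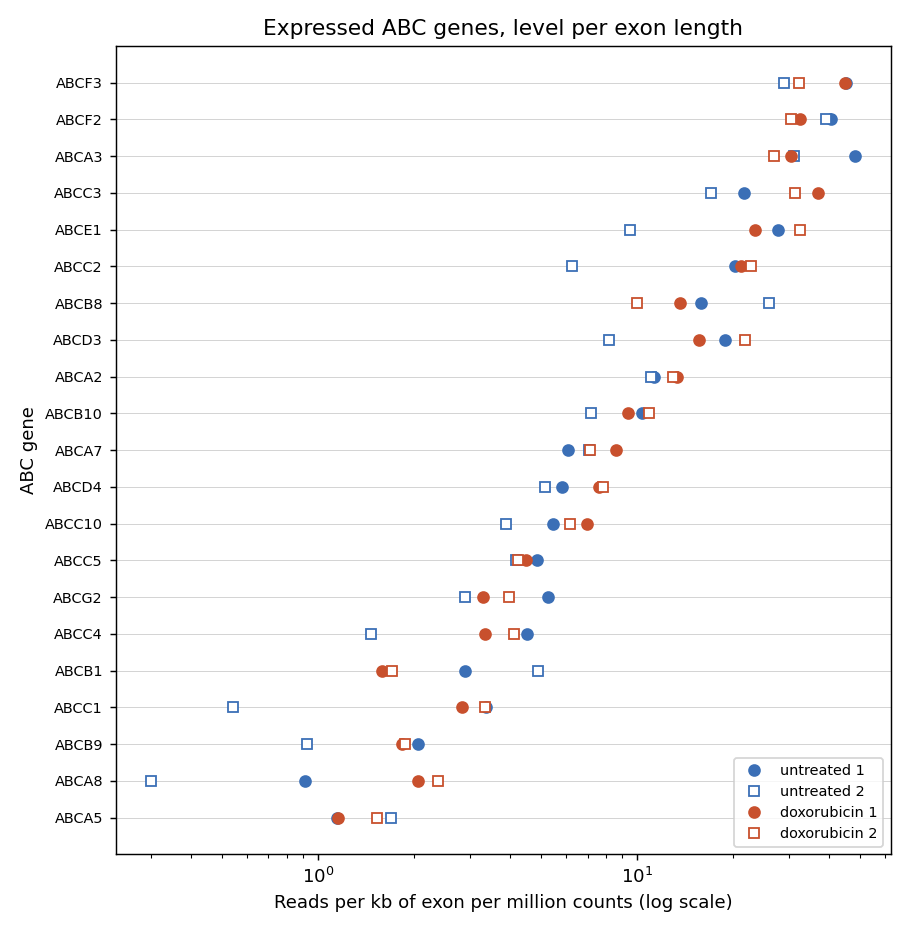
Level per exon length (RPKM, log scale) of 21 expressed ABC genes, sorted by their mean. Each row is a gene and each point a library; the open blue square of untreated replicate 2 is the leftmost point in most rows, ABCC1 (0.54 against 2.84 to 3.38) being an example.

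The drug efflux pumps were all expressed. Their mean RPKM was 3.86 for ABCG2 (range 2.90 to 5.26), 2.77 for ABCB1 (1.59 to 4.89) and 2.52 for ABCC1 (0.54 to 3.38), and these ranges overlapped. The exporters of conjugates ABCC4 (mean 3.36), ABCC5 (4.44) and ABCC10 (5.62) had ranges that overlapped with that of ABCG2.

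ABCB1 was lower in both doxorubicin libraries than in both untreated libraries. Untreated replicates 1 and 2 had a CPM of 16.1 and 27.2, whereas doxorubicin replicates 1 and 2 had 8.86 and 9.47. The groups did not overlap, and the lowest untreated value was well above both treated values. In 11.5% of all tested genes both treated libraries were below both untreated ones. The log2 fold change of doxorubicin over untreated was -1.39 (standard error 0.46, 95% interval -2.55 to -0.24), with an adjusted p-value of 0.773 in the quasi-likelihood test of edgeR (Benjamini-Hochberg over all genes), so the difference did not pass the threshold. Without untreated replicate 2 it was -0.96 (standard error 0.28, interval -1.50 to -0.41, edgeR adjusted p-value 0.0160), which passed the p-value threshold but fell just short of the 2-fold limit. Without untreated replicate 1 it was -1.65. Since both untreated values lay above both treated ones, leaving out either untreated library could not turn the direction.

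ABCC1 was set by untreated replicate 2. Untreated replicates 1 and 2 stood at a CPM of 22.9 and 3.67, and doxorubicin replicates 1 and 2 at 19.2 and 22.6. The treated values lay between those of the untreated replicates, close to replicate 1 and far above replicate 2. Its log2 fold change was 0.48 (standard error 0.82, interval -1.56 to 2.53, edgeR adjusted p-value 0.865). Without untreated replicate 2 it was -0.28 (interval -0.79 to 0.23, edgeR adjusted p-value 0.602), an interval that leaves room for a fall of 0.79 and a rise of 0.23 on the log2 scale. Without untreated replicate 1 it was 2.42 (edgeR adjusted p-value 4.31e-12), so the direction depends on which untreated library is used.

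ABCG2 had a CPM of 26.8 and 14.8 untreated, and of 16.8 and 20.2 with doxorubicin. Both treated values lay between the untreated ones. On the log2 scale the difference was -0.33 (standard error 0.46, interval -1.48 to 0.82, edgeR adjusted p-value 0.834). Without untreated replicate 2 it was -0.68 (interval -1.19 to -0.18, edgeR adjusted p-value 0.0883), and without untreated replicate 1 it was 0.24. None of the 3 pumps was higher in both treated libraries than in both untreated libraries, which was so in 30.3% of all tested genes.

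**Figure D2:**
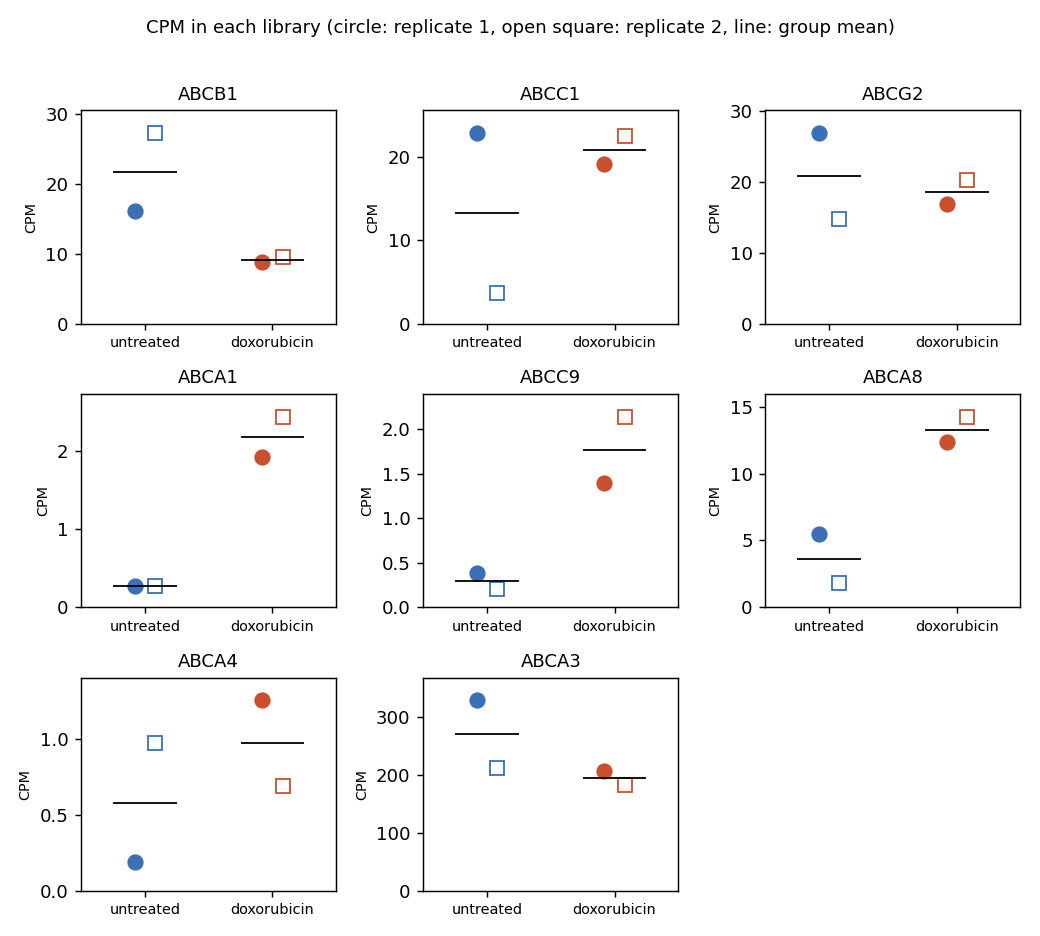
CPM in each library (y axis, from 0) of the 3 drug efflux pumps and of 5 further ABC genes with an adjusted p-value under 0.05 without untreated replicate 2, with circles for replicate 1, open squares for replicate 2 and a line at the group mean. ABCB1 and ABCA3 lie lower in both treated libraries and ABCA1, ABCC9 and ABCA8 higher, while ABCC1, ABCG2 and ABCA4 overlap between groups.

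Over the whole family, the 4-library test called 0 of the 31 ABC genes that passed the filter on low counts, as it called 0 of all 17479 genes tested (0% higher and 0% lower with doxorubicin). To be called, a gene needed an edgeR adjusted p-value under 0.05 together with a difference of 2-fold or more (a log2 fold change of 1). At an unadjusted p-value under 0.05 there were 3 ABC genes above 0 (ABCA1, ABCC9, ABCA8; 2.66% of all tested genes) and 2 below 0 (ABCB1 among them; 1.73%). DESeq2 called 0 ABC genes and 89 genes in all. The exact and likelihood ratio tests of edgeR also called 0 ABC genes, and 46 and 64 of the 17479 genes. The log2 fold changes of the 31 genes lay between -1.39 and 2.80 with a median of 0.15, beside a median of 0.01 over all tested genes, and 19 were above 0 and 12 below. The 15 genes that did not pass the filter were low throughout and are described further on.

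In CPM, which scales by the library total alone, the groups did not overlap in 15 of the 31 genes. In 10 of them both treated libraries were above both untreated ones (30.3% of all tested genes), and in 5 both were below (11.5%). The share above was near that of all genes. Among the expressed genes, the 7 above were ABCA2, ABCA7, ABCA8, ABCC2, ABCC3, ABCC10 and ABCD4, and the 5 below included ABCA3, ABCB1, ABCB8 and ABCF2.

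Without untreated replicate 2, the edgeR test called 4 of 31 ABC genes as higher with doxorubicin (3.88% of the 18356 genes tested in that fit) and 0 as lower (0.556%). These 4 were ABCA1, ABCC9, ABCA8 and ABCA4. With an adjusted p-value under 0.05 alone, 4 were higher (4.61%) and 3 were lower (1.73%), the latter including ABCB1 and ABCA3. With a single untreated library, this fit takes the untreated cells to vary like the doxorubicin replicates. Without untreated replicate 1, 9 ABC genes were called as higher (21.2% of the 19606 genes tested) and 4 as lower (23.2%). The 9 were ABCA1, ABCA8, ABCC1, ABCC2, ABCC4, ABCC9, ABCD3, ABCE1 and ABCG1, and the 4 were ABCB1, ABCB8, ABCG4 and ABCG8. Both fits use the same doxorubicin libraries. With a single untreated library, a single library above the filter level was enough for a gene to be tested. ABCG8 thus entered the fit without untreated replicate 1 through untreated replicate 2 alone. ABCA1 and ABCC9 entered that fit through the treated libraries alone. For these genes, being tested there already required a difference. Among the 23 expressed genes, 9 changed the sign of their log2 fold change when untreated replicate 2 was left out.

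**Figure D3:**
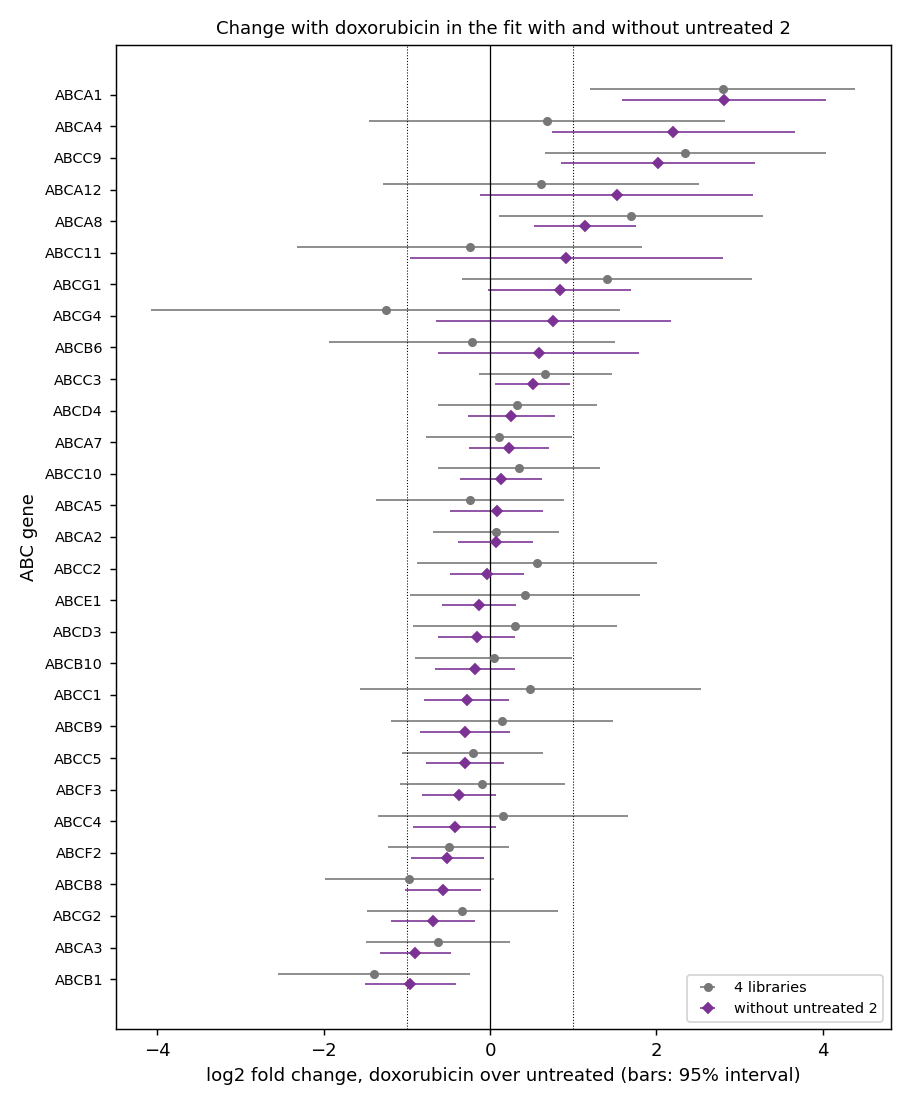
Log2 fold change of doxorubicin over untreated (x axis) of 29 tested ABC genes, in the fit with 4 libraries (grey circles) and without untreated replicate 2 (violet diamonds), with 95% intervals as bars and dotted lines at the 2-fold limits. ABCA1, ABCC9 and ABCA8 lie above 0 and ABCB1 below 0 with both intervals clear of 0, and ABCA4 moves from 0.69 to 2.20.

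The promoters of ABCA1 and ABCC9, which were called as higher without untreated replicate 2, and of ABCB1 and ABCA3, which were lower there, are shown because they stand for both directions. They are RefSeq sequences (GRCh38.p14) from 250 bases before to 50 bases after the transcription start, 5′ to 3′ on the strand of the gene. Capitals mark matches on either strand to GGGCGG (the GC box), CCAAT (the site of NF-Y), TATAAA (bound by TBP), CACGTG (an E-box), the p53 decamer, and a pair of elements, each either GGTTA or its variant GGTCA, with 5 bases between them, the core of the repeat that liver X receptors bind.
ABCA1 (chr9:104928106-104928405, minus strand): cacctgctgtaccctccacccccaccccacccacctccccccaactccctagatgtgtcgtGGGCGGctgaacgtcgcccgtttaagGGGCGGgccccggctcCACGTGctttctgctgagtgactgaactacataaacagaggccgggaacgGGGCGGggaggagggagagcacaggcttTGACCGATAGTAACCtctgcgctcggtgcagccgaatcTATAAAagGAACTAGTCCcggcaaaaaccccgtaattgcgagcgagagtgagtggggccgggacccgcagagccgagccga
ABCC9 (chr12:21941377-21941676, minus strand): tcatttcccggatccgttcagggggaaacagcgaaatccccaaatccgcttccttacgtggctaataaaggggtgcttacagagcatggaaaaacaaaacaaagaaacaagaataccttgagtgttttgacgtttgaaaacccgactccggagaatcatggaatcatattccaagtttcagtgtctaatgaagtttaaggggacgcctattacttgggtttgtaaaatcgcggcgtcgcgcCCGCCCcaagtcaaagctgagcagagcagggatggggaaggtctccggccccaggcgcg
ABCB1 (chr7:87600835-87601134, minus strand): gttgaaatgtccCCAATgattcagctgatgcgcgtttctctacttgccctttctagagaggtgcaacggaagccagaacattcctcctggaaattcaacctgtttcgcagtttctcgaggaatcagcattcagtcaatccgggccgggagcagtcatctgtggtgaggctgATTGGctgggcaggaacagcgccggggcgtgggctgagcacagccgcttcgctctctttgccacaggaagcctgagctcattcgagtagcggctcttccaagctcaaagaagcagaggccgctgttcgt
ABCA3 (chr16:2340679-2340978, minus strand): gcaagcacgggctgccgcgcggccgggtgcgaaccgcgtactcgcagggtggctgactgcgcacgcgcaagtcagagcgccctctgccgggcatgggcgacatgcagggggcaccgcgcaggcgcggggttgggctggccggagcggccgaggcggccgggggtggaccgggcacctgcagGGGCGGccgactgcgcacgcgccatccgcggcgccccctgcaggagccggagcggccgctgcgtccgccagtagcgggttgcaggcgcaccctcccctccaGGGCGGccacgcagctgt
The ABCA1 promoter held all of these motifs except CCAAT, the repeat among them. The repeat was found in 0.2% of 35116 promoters of the same length and in 1 of the 35 ABC genes with an entry. The ABCB1 promoter held CCAAT on both strands and none of the others, while ABCA3 and ABCC9 held the GC box alone. GGGCGG was present in 12 of 18 expressed and 6 of 17 other ABC genes (45.0% of all promoters), CCAAT in 4 and 4 (34.6%), TATAAA in 3 and 2 (11.5%), CACGTG in 1 and 4 (7.3%) and the p53 decamer in 2 and 5 (6.6%). GC content had a median of 69.2% in the expressed and 50.7% in the other genes, with ranges of 45.0% to 86.7% and 32.3% to 69.0%. A match describes letters and not binding. The 11 members without an entry include ABCA8, ABCC1 and ABCC3.

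Of the 12 lipid transporters of subfamily A, 5 were expressed and 8 tested. ABCA1, which hands cellular cholesterol and phospholipid to apolipoprotein A-I, had 10 and 8 counts untreated, against 66 and 67 with doxorubicin. Its CPM was thus 0.276 and 0.277 untreated against 1.92 and 2.43 with doxorubicin, with the replicates of each group close together. The log2 fold change was 2.80 (standard error 0.64, interval 1.20 to 4.39, edgeR adjusted p-value 0.773) with 4 libraries and 2.81 (standard error 0.63, edgeR adjusted p-value 0.000554) without untreated replicate 2, and it stayed between 2.71 and 2.95 whichever library was left out. ABCA1 passed the filter on low counts through the treated libraries alone, so that its presence among the tested genes already required a difference.

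ABCA8, a lipid transporter linked to cholesterol efflux, had a CPM of 5.46 and 1.80 untreated, and of 12.4 and 14.3 with doxorubicin. Both treated values were above both untreated ones, and the untreated replicates lay far apart. This gave a log2 fold change of 1.69 (standard error 0.64, edgeR adjusted p-value 0.773), and 1.14 (standard error 0.31, edgeR adjusted p-value 0.00939) without untreated replicate 2. ABCA4, the retinoid transporter of photoreceptors, had 7 and 28 counts untreated and 43 and 19 with doxorubicin. Its groups overlapped, and its call without untreated replicate 2 rested on the 7 counts of a single untreated library (log2 fold change 2.20, edgeR adjusted p-value 0.0492). Without untreated replicate 1 its log2 fold change was -0.04. In the fit without untreated replicate 2, ABCA4 passed the filter on low counts through the treated libraries alone. Its presence there already required a difference.

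ABCA3 had a CPM of 328.8 and 211 untreated, and of 207 and 183 with doxorubicin. It was lower in both treated libraries, although untreated replicate 2 and doxorubicin replicate 1 nearly met. The log2 fold change was -0.62 (standard error 0.35, edgeR adjusted p-value 0.773), and -0.90 (standard error 0.22, edgeR adjusted p-value 0.00170) without untreated replicate 2. Without untreated replicate 1 it was only -0.20 (edgeR adjusted p-value 0.460), so the size of the difference rests on that library. The other 3 expressed genes of the group had smaller differences. ABCA2, found in endosomes and lysosomes, had a log2 fold change of 0.07, ABCA7, a phospholipid transporter, of 0.10, and ABCA5 of -0.24. Their edgeR adjusted p-values lay between 0.879 and 0.948, and their intervals from -0.68 to 0.82, from -0.77 to 0.98 and from -1.37 to 0.89. ABCA12, the lipid transporter of the skin barrier, had 6 and 14 counts in untreated and 22 and 11 in treated cells.

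The 7 genes grouped here as exporters of sterols and bile, with ABCC6 placed among them, were low, and 0 were expressed. ABCC2, which exports conjugates across the canalicular face and was expressed, is described with the exporters of conjugates. ABCB11, the bile salt export pump, had at most 6 counts in any library, ABCB4, the phosphatidylcholine translocase of bile, at most 3, ABCG5 at most 2 and ABCC6, which has pseudogene copies, at most 4. Their levels were thus at or close to the limit that a count of 0 allows. ABCG8, the partner of ABCG5 in sterol export, had 32 counts in untreated replicate 2 and at most 1 in the others. ABCG4 had 66 counts in untreated replicate 2 and between 8 and 27 in the others. Of the 2 genes of this group that were tested, ABCG4 and ABCG1, the latter was higher in both treated libraries. ABCG1 exports cholesterol to lipoproteins and like ABCA1 is a classic target of liver X receptors. Its CPM was 1.32 and 0.381 untreated and 2.36 and 2.90 with doxorubicin, with a log2 fold change of 1.41 (standard error 0.70, edgeR adjusted p-value 0.773), and 0.83 (interval -0.03 to 1.70) without untreated replicate 2.

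Among 8 further exporters of conjugates and nucleotides, 5 were expressed and 0 were called without untreated replicate 2. ABCC3 had a CPM of 138.9 and 109.5 untreated and of 236.9 and 200.5 with doxorubicin. Both treated values were well above both untreated ones, and the log2 fold change was 0.66 (standard error 0.32, edgeR adjusted p-value 0.773), and 0.51 (interval 0.06 to 0.96, edgeR adjusted p-value 0.181) without untreated replicate 2. ABCC2, the canalicular conjugate pump, had 125 and 38.5 untreated and 130.4 and 139.8 with doxorubicin. Untreated replicate 1 and the treated libraries lay together, and the log2 fold change moved from 0.56 to -0.04 without untreated replicate 2. ABCC4, which exports cyclic nucleotides, also moved, with a CPM of 28.3 and 9.18 against 21.0 and 25.8 and a log2 fold change of 0.15 that became -0.42. ABCC5 differed little, with a CPM of 50.7 and 43.7 against 46.8 and 44.2. ABCC10 had a CPM of 29.8 and 21.2 against 38.3 and 33.8 (log2 fold change 0.34, standard error 0.39, and 0.13 without untreated replicate 2). ABCC11, ABCC12 and ABCB5 had at most 15 counts in any library.

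Of the 4 peroxisomal and lysosomal members of subfamily D, 3 were expressed and 0 were called without untreated replicate 2. ABCD3, which imports branched-chain fatty acids and bile acid precursors into peroxisomes, had a CPM of 71.6 and 31.1 against 59.4 and 82.7, and its groups overlapped. Its log2 fold change was 0.30, and -0.16 without untreated replicate 2. ABCD4, which releases cobalamin from lysosomes, had 18.0 and 15.9 against 23.4 and 24.2 (log2 fold change 0.33, standard error 0.38, and 0.25 without untreated replicate 2). ABCD2 had at most 8 counts in any library.

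Of the 5 mitochondrial and endosomal members of subfamily B, 4 were expressed and 0 were called without untreated replicate 2. ABCB8, of the inner mitochondrial membrane, had a CPM of 81.7 and 133 untreated and of 70.1 and 51.4 with doxorubicin, so both treated values were lower. Its log2 fold change was -0.97 (standard error 0.41, edgeR adjusted p-value 0.773), and -0.57 (edgeR adjusted p-value 0.127) without untreated replicate 2. ABCB10, a mitochondrial protein of heme synthesis, had a CPM of 40.1 and 27.8 against 36.2 and 42.2, and ABCB9, a lysosomal peptide transporter, had 14.7 and 6.61 against 13.1 and 13.4. In both genes the groups overlapped and untreated replicate 2 was the lowest library. ABCB6 had a CPM between 0.496 and 1.28. In GENCODE release 44, 94.2% of the exon bases of ABCB6 are shared with a second gene on the same strand, 42.3% of ABCF2 likewise, and 38.5% of ABCB9 with a gene on the opposite strand, so that counts of these genes are uncertain.

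ABCC9, the sulfonylurea receptor SUR2 that regulates ATP-sensitive potassium channels, was higher in both treated libraries at a low level. It had 14 and 6 counts untreated against 48 and 59 with doxorubicin. Its CPM was 0.386 and 0.208 in untreated and 1.40 and 2.14 in treated cells, and the log2 fold change was 2.35 (standard error 0.68, interval 0.66 to 4.03, edgeR adjusted p-value 0.773), and 2.02 (standard error 0.60, edgeR adjusted p-value 0.0181) without untreated replicate 2. Like ABCA1, it passed the filter through the treated libraries, with 1 untreated library above the filter level. KCNJ8, the channel pore that pairs with ABCC9, had at most 2 counts in any library. ABCC8, the other sulfonylurea receptor, had at most 6 counts in any library.

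The ribosome proteins ABCE1, ABCF2 and ABCF3 were among the strongest members. ABCF2 had a CPM of 183.9 and 177 untreated and of 147 and 137.9 with doxorubicin, lower in both treated libraries (log2 fold change -0.50, standard error 0.29, edgeR adjusted p-value 0.773, and -0.51 with 0.160 without untreated replicate 2). ABCF3 had 112 and 71.3 against 111 and 79.6, and ABCE1 had 107 and 36.9 against 91.2 and 125.8. In both the groups overlapped, and without untreated replicate 2 their log2 fold changes were -0.37 and -0.14.

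ABCF1, the third member of the subfamily and a factor of translation initiation, had only 6 and 6 counts untreated and 2 and 4 with doxorubicin. It lies on chromosome 6 from 30571393 to 30597179 (GRCh38), in the major histocompatibility region. In a window of that chromosome from -2.08 to 2.92 Mb around the middle of ABCF1, 10 of 171 protein-coding genes were expressed (5.85%), against 57.2% of 18665 genes elsewhere and 59.6% of 773 genes on the rest of chromosome 6. TAP1 and TAP2, ABC genes of antigen presentation that lie in the same region under other symbols, had at most 1 count, as did their partner TAPBP. GNL1, NRM and ATAT1, among the 10 protein-coding genes nearest to ABCF1, had 0 counts in all 4 libraries. TUBB, a tubulin gene used by most dividing cells and picked after its values were seen, had at most 5. Low counts thus extended over most of the region, although DHX16, another of the nearest, had between 28 and 204. No level of ABCF1, TAP1 or TAP2 can be read from them. The cause was not tested.

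**Figure D4:**
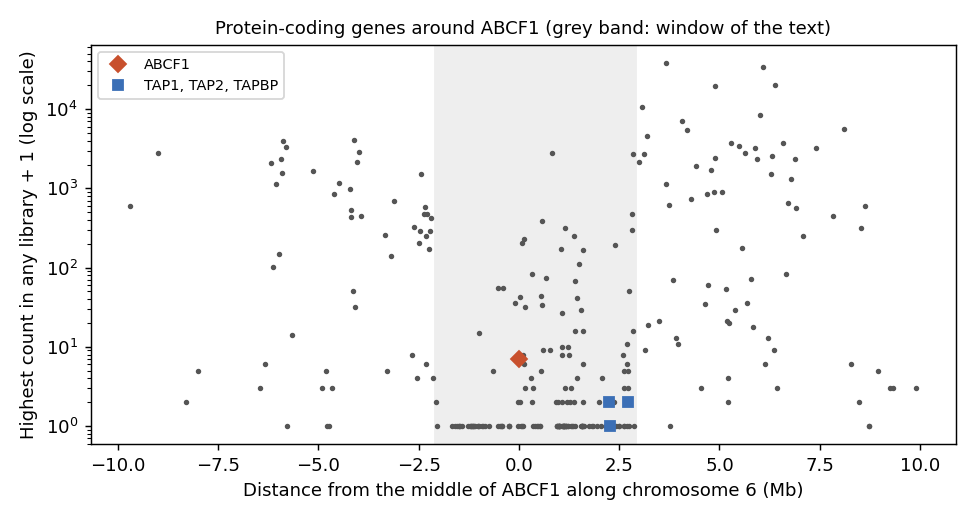
Highest count in any of the 4 libraries plus 1 (y axis, log scale) of protein-coding genes within 10 Mb of ABCF1 on chromosome 6, against their distance from its middle. Most genes in the grey band, which spans the window of 171 genes, sit at or near 0 counts together with ABCF1 (orange) and with TAP1, TAP2 and TAPBP (blue), while many genes on both sides have far more.

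The remaining members were near 0. ABCA6, ABCA9, ABCA10 and ABCA13 had at most 11 counts in any library, and ABCC13, whose symbol matched 2 annotated genes, had at most 4.

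Partners and regulators were examined as a list of 24 genes, of which 12 were expressed and 15 tested. The edgeR test called 0 of them with 4 libraries, 0 without untreated replicate 2, and 1, YBX1, had an unadjusted p-value under 0.05 and was lower (1.73% of all tested genes). YBX1, a Y-box protein described as a regulator of ABCB1, had a CPM of 1527 and 2285 untreated and of 1112 and 1130.0 with doxorubicin (log2 fold change -0.92, standard error 0.30, edgeR adjusted p-value 0.773, and -0.59 with 0.0610 without untreated replicate 2). Both treated values were below both untreated ones, which was so in 11.5% of all tested genes. The liver X receptors NR1H2 and NR1H3 were both expressed and overlapped between groups, with log2 fold changes of 0.06 and -0.06, and their partner RXRA had a CPM of 44.4 and 4.33 against 49.6 and 47.8. The receptors NR1I2 and NR1H4, which control drug and bile acid transporters in liver, had at most 7 counts in any library, and NR1I3 at most 55. AHR and PPARA had log2 fold changes of 0.67 and 1.21 (standard errors 0.41 and 0.78), and of 0.50 and 0.50 without untreated replicate 2. MVP, the major vault protein found in some drug-resistant cells, had a CPM of 81.1 and 41.0 against 136.8 and 132.8 (log2 fold change 0.98, standard error 0.43, edgeR adjusted p-value 0.773, and 0.59 with 0.118 without untreated replicate 2). SLC22A3, an organic cation carrier, had overlapping groups, with a log2 fold change of 0.08. LMBRD1, the partner of ABCD4, had 0.70 (standard error 0.43, and 0.40 without untreated replicate 2), PEX19, which carries ABCD proteins to peroxisomes, 0.07, and the scaffold protein EZR 0.05.

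Untreated replicate 2 was the lowest library in 16 of the 23 expressed ABC genes (45.0% of all tested genes), the highest in 3 (36.6%) and between the others in 4. The tested genes include many of lower level than the 23, so these shares are not over a like set. The untreated replicates were at least 2-fold apart in 8 of the 23 genes, and the doxorubicin replicates in 0. The GC content of the transcripts was set beside these differences. In the 10 expressed genes with a GC content under 50% the median log2 ratio of untreated replicate 2 over 1 was -1.17, and in the 13 others it was -0.21. The ranges overlapped widely, from -1.70 to 0.75 and from -2.61 to 0.70, and untreated replicate 2 was the lower of the pair in 8 of the 10 and 11 of the 13. Across the 23 genes the Spearman correlation with GC content was 0.30 for this ratio and -0.82 for the ratio of doxorubicin replicate 2 over 1, beside 0.19 and -0.47 across 14441 tested genes. These are correlations across genes of the same libraries, and genes are not independent replicates. The part of GC content in the comparisons was not tested.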

How the data were processed

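RNA-seq counts of 4 libraries labelled HepG2 were used, grouped by sample title. Where the tag for treatment and the title of a sample differ, the title and series description were followed. After read filtering, the authors used HISAT2 for mapping to hg38 and deposited raw counts per gene symbol without normalization. The submitters' processing notes name HTSeq, the layout is that of featureCounts, and the file headers name GENCODE release 31 (basic). Versions, use of strand and treatment of multi-mapped reads are not given in the sources used here.

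CPM was the count over the library total. Genes were filtered with filterByExpr (minimum of 10 counts) and tested in R 4.3.3 with edgeR 4.0.16 (TMM, estimateDisp, glmQLFit, glmQLFTest), with Benjamini-Hochberg adjustment over all tested genes. Standard errors and 95% intervals come from the quasi-likelihood F statistic. Genes were called where the adjusted p-value was under 0.05 and the difference 2-fold or more. Positions, exon lengths (union of basic transcripts) and GC content (canonical transcript) were taken from GENCODE release 44 (GRCh38), matched by symbol for 45 of the 46 members and 82.6% of tested genes. Promoters were RefSeq entries nearest to the canonical start, found for 35 members. The procedure was checked on simulated counts.

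A few members and partner genes enter the counts but are not reported here. The members and gene lists were chosen with earlier results of these data known. Genes named were the pumps, the expressed members, those past a threshold without untreated replicate 2, lower members by count, and expressed partner genes, while a few further partner genes near 0 and neighbours of ABCF1 were named after their values were seen. Alternatives were DESeq2 1.42.0, the exact and likelihood ratio tests, RLE factors, library size alone, other filters, the replicate block and each library left out. The p-values rest on 2 libraries a group, and limits from counts cover counting error only.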

Additional observations from a re-analysis of the deposited data

How the results depend on the processing

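The number of ABC genes expressed, 23, was between 23 and 24 with any library left out. With 4 libraries, 0 ABC genes were called under every other test, normalization and filter tried. With a library left out, between 0 and 13 ABC genes and between 0 and 6 partner genes were called, the 13 and 6 without untreated replicate 1, where 8697 of 19606 genes were called. The 4 calls without untreated replicate 2 became 2 with DESeq2 (ABCA1 and ABCA8), 3 with RLE factors and 3 without a filter (ABCA4 was lost in both), and 7 with no minimum fold change, an alternative chosen after seeing the data, as was an older form of that fit (4). With the replicate block, 0 ABC genes were called, and 20 genes in all, against 0 without it. The deviations of libraries with the same number had a correlation of 0.0177 across genes. With so few libraries a group, and untreated replicate 2 apart from the others, this cannot decide whether the numbers pair libraries.

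With a library left out, log2 fold changes ranged from -1.65 to -0.96 for ABCB1, from -0.28 to 2.42 for ABCC1, from -0.68 to 0.24 for ABCG2, from -0.16 to 1.10 for ABCD3, from -0.18 to 0.41 for ABCB10, from -0.38 to 0.34 for ABCF3, from -0.14 to 1.47 for ABCE1, from -0.036 to 1.73 for ABCC2, from -0.30 to 0.92 for ABCB9, from -0.42 to 1.26 for ABCC4, from -0.43 to 0.078 for ABCA5, from -0.047 to 0.32 for ABCA7 and from -0.045 to 2.20 for ABCA4. Among 24 of the named genes, the pumps and other expressed or called members, the sign turned for 8 without untreated replicate 2, for 3 without untreated replicate 1 and for ABCA7 without doxorubicin replicate 1 and ABCF3 without doxorubicin replicate 2. Of the low members tested besides, ABCG4 turned from -1.26 to 0.76, ABCB6 from -0.22 to 0.58 and ABCC11 from -0.25 to 0.92 without untreated replicate 2, and ABCC11 to 0.06 without doxorubicin replicate 1. ABCA3 ranged from -0.90 to -0.20. ABCB10 also turned, from 0.04 to -0.0043 with DESeq2 and -0.0052 with RLE factors, and ABCF3 from -0.09 to 0.057 with library size alone.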
